A study of Mus musculus with 11 samples.

Results

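A set of 10 genes of the MHC class I antigen processing pathway was described across 11 mammary tumours: H2-K1, H2-D1, B2m, Tap1, Tap2, Tapbp, Psmb8, Psmb9, Psmb10 and Nlrc5. They were found by gene symbol among 19087 named genes on the arrays of the DMBA-treated tumours, where all 10 had features (36 in all), and among 16887 named genes on the arrays of the untreated tumours, where 9 of them had features (11 in all). Nlrc5 was not analysed here in the untreated tumours. DMBA-treated tumours, 5 in number, came from MMTV-Neu+/- mice given dimethylbenzanthracene (DMBA), a polycyclic hydrocarbon carcinogen. Untreated tumours, 6 in number, came from MMTV-Neu+/- mice without it, so both groups carry the same transgene. In this line the promoter of the mouse mammary tumour virus drives the Neu (ErbB2) receptor kinase in mammary epithelium. The dose and time of DMBA and the age of the mice are not given in the sources used here. Each array set 1 tumour RNA against a common RNA of whole mouse, and the value used is the deposited log2 ratio, so a value of 1 means a level 2-fold that of the whole mouse reference. That reference is a mixture of organs and not normal mammary gland. Samples of the p53 knockout and of rexinoid treatment named in the series title were not analysed here.

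MHC class I molecules carry peptides of proteins made inside a cell to its surface, where CD8 T cells read them. The proteasome cuts the proteins, and under interferon-gamma its catalytic subunits are replaced by the inducible subunits Psmb8, Psmb9 and Psmb10. The transporter made of Tap1 and Tap2 moves the peptides into the endoplasmic reticulum, and Tapbp (tapasin) holds the transporter next to a heavy chain (H2-K1 or H2-D1) paired with B2m while the peptide is loaded. Nlrc5 is the transactivator of class I genes. In breast and other tumours the pathway is known both for its loss and for its induction by interferon.

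Of the 10 genes, 7 lie on chromosome 17, where Psmb9, Tap1, Psmb8 and Tap2 follow each other as neighbours in RefSeq's order of genes. B2m lies on chromosome 2, and Psmb10 and Nlrc5 lie on chromosome 8. The stretches upstream of 4 of them and the stretch between Psmb9 and Tap1 are shown because these genes stood high over the reference in both groups. They are the 250 bases before each gene's start in RefSeq's promoter table (GRCm38.p6), printed 5′ to 3′ on the strand of the gene, and capitals mark the motifs that were searched. H2-K1 covers chr17:34000348-34000597 on the minus strand, H2-D1 covers chr17:35262844-35263093 on the plus strand, B2m covers chr2:122147437-122147686 on the plus strand, and Psmb8 covers chr17:34197945-34198194 on the plus strand. The stretch between Psmb9 and Tap1, chr17:34187331-34187555, is 225 bases long, is shown on the plus strand and lies upstream of both genes, which point away from each other.
H2-K1: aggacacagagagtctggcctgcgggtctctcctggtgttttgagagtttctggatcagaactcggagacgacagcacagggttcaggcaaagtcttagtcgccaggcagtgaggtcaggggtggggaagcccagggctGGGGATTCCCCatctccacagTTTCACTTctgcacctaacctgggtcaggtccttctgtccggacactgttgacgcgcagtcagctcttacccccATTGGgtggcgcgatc
H2-D1: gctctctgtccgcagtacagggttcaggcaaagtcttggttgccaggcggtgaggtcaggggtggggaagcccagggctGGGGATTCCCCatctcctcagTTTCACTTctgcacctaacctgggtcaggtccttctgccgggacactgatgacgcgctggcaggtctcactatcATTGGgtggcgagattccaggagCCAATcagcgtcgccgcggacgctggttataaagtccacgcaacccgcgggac
B2m: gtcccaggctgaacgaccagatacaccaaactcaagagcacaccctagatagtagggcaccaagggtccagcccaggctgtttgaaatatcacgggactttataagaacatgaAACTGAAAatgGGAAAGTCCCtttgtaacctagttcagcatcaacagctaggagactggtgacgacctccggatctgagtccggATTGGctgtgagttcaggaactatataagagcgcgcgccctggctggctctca
Psmb8: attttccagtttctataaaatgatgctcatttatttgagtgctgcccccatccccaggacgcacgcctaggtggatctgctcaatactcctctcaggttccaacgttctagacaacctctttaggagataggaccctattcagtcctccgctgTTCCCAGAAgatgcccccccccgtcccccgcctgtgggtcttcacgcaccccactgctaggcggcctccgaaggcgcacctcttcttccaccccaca
Between Psmb9 and Tap1: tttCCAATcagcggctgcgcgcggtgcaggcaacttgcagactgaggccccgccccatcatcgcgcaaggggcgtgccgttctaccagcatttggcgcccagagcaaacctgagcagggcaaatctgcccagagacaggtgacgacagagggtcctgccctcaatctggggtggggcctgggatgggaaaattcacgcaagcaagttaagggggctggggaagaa

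The search covered both strands of the 250 bases for an interferon-regulatory-factor type motif (AANNGAAA), a STAT type motif (TTCNNNGAA), the NF-kB motif by its name, and CCAAT. An entry was found for 8 of the 10 genes. AANNGAAA was present upstream of 3 of the 8 (H2-K1, H2-D1 and B2m), against 21.6% of 27025 promoters of the same length. The NF-kB motif was present upstream of the same 3 genes, against 3.75% of promoters, with 2 overlapping matches each in H2-K1 and H2-D1. TTCNNNGAA was present upstream of Psmb8, against 7.18% of promoters. CCAAT was present upstream of 6 of the 8 (H2-K1, H2-D1, B2m, Tap1, Tapbp and Psmb9), against 34.5% of promoters, and the matches of Tap1 and Psmb9 are the same site in the stretch they share. The H2-K1 and H2-D1 stretches matched at 161 of 177 aligned columns (91.0%), with the NF-kB match and AANNGAAA at the same spacing in both. In B2m the order of these 2 motifs is reversed, AANNGAAA lying upstream of the NF-kB match. These are matches of letters and not tested binding sites.

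Array medians lay between -0.013 and 0.008, and the correlation between arrays of a group over all features was 0.7887 to 0.8565 in DMBA-treated tumours and 0.8864 to 0.9408 in untreated tumours, so no array repeated another. Since the labels leave out the tumour dye, genes typical of other organs served to settle which way the ratio runs. The median of a liver list lay between -3.94 and -3.50 in DMBA-treated tumours and between -4.29 and -3.88 in untreated tumours, and lists of skeletal muscle and brain were also below 0 on every array, and the ratio was read as tumour over whole mouse. Luminal mammary genes were higher than the reference for 6 of 7 in DMBA-treated tumours (Epcam 3.23 ± 0.17, Elf5 4.04 ± 0.19, SD, n = 5; Cdh1 did not pass) and for 7 of 7 in untreated tumours, while 4 of 4 basal genes were lower in both groups. Of all genes, 26.1% were higher and 31.7% lower in DMBA-treated tumours, and 28.8% and 32.1% in untreated tumours. Whether each tumour came from its own mouse is not stated, and p-values therefore cover the scatter of these samples alone, which may be technical. Each group lies in a deposited table of its own, from a different array design, so treatment and array design cannot be told apart, and no test between the groups was made.

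The heavy chains and their light chain stood far above the whole mouse reference in both groups. H2-D1, a classical heavy chain, had log2 ratios of 3.39, 4.07, 4.25, 3.90 and 4.13 in DMBA-treated tumours 1 to 5, against 2.91, 1.71, 1.56, 3.70, 2.35 and 2.15 in untreated tumours 1 to 6. The DMBA-treated tumours lay close together and untreated tumour 4 lay among them, so the groups overlapped. The means over the reference were 3.95 ± 0.34 in DMBA-treated tumours (15.4-fold, SD, n = 5, limma adjusted p = 1.65e-06) and 2.40 ± 0.80 in untreated tumours (5.27-fold, n = 6, limma adjusted p = 3.45e-05). H2-K1, the other classical heavy chain, had 2.46, 2.88, 3.07, 2.64 and 2.80 in DMBA-treated tumours, against 1.79, 1.93, 1.53, 2.16, 2.30 and 2.09 in untreated tumours. Here every DMBA-treated tumour was above every untreated one. The means were 2.77 ± 0.24 in DMBA-treated tumours (6.82-fold, limma adjusted p = 2.92e-06) and 1.97 ± 0.28 in untreated tumours (3.91-fold, limma adjusted p = 4.1e-07). B2m, the light chain shared by the class I molecules, had 1.79, 4.54, 2.93, 2.97 and 3.59 in DMBA-treated tumours, against 2.35, 0.99, 2.30, 3.08, 2.57 and 1.37 in untreated tumours. The groups overlapped widely, and B2m was the most variable of the 10 genes in DMBA-treated tumours. Its means were 3.16 ± 1.01 in DMBA-treated tumours (8.96-fold, limma adjusted p = 0.000293) and 2.11 ± 0.78 in untreated tumours (4.31-fold, limma adjusted p = 7.13e-05). H2-K1, H2-D1 and the H2-Q genes are close copies of each other, so a feature named for one of them may also read another.

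The genes of peptide transport and loading were also higher than the reference in both groups. Tap1, a subunit of the peptide transporter, had 1.98, 3.11, 2.59, 2.33 and 3.42 in DMBA-treated tumours, against 2.19, 1.6, 1.21, 3.37, 2.41 and 1.86 in untreated tumours. The highest values of the groups were nearly equal, in DMBA-treated tumour 5 and untreated tumour 4. The means were 2.69 ± 0.58 in DMBA-treated tumours (6.43-fold, limma adjusted p = 5.77e-05) and 2.11 ± 0.75 in untreated tumours (4.31-fold, limma adjusted p = 5.53e-05). Tap2, the other transporter subunit, had 2.65, 2.55, 2.69, 2.47 and 3.24 in DMBA-treated tumours, against 2.32, 2.10, 1.14, 2.92, 2.08 and 2.58 in untreated tumours. Tap2 varied less between DMBA-treated tumours than Tap1 did, apart from tumour 5. Its means were 2.72 ± 0.30 in DMBA-treated tumours (6.60-fold, limma adjusted p = 5.48e-06) and 2.19 ± 0.60 in untreated tumours (4.57-fold, limma adjusted p = 1.08e-05). Tapbp, the loading chaperone, had 1.24, 2.12, 1.39, 1.35 and 1.90 in DMBA-treated tumours, against 1.91, 1.30, 1.86, 2.31, 1.52 and 2.10 in untreated tumours. It was the only one of the 9 genes with the lower mean in DMBA-treated tumours, an order that turned round when a single feature or the features of a shared transcript record stood for the gene, and the groups overlapped over most of their range. The means were 1.6 ± 0.39 in DMBA-treated tumours (3.03-fold, limma adjusted p = 0.000156) and 1.83 ± 0.37 in untreated tumours (3.57-fold, limma adjusted p = 2.55e-06).

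Of the inducible proteasome subunits, Psmb8 and Psmb9 stood far above the reference and Psmb10 only slightly. Psmb8 had 2.35, 4.12, 3.18, 3.08 and 3.44 in DMBA-treated tumours, against 2.98, 1.6, 2.33, 4.15, 2.98 and 3.64 in untreated tumours. The groups covered nearly the same range, and in untreated tumours Psmb8 had the highest mean of the 9 genes. The means were 3.23 ± 0.64 in DMBA-treated tumours (9.39-fold, limma adjusted p = 3.43e-05) and 2.94 ± 0.91 in untreated tumours (7.69-fold, limma adjusted p = 1.86e-05). Psmb9 had 2.24, 4.16, 2.95, 2.95 and 3.37 in DMBA-treated tumours, against 2.52, 1.17, 2.03, 3.33, 2.18 and 2.29 in untreated tumours. As for Psmb8, DMBA-treated tumour 2 was highest and tumour 1 lowest, and untreated tumour 4 was highest and tumour 2 lowest. The means were 3.13 ± 0.71 in DMBA-treated tumours (8.78-fold, limma adjusted p = 6.11e-05) and 2.26 ± 0.70 in untreated tumours (4.77-fold, limma adjusted p = 2.33e-05). Psmb10 had 0.13, 0.91, 0.75, 0.76 and -0.04 in DMBA-treated tumours, against 0.35, -0.05, 0.54, 1.29, 0.57 and 0.03 in untreated tumours. In each group 1 tumour was below 0 and the rest were above it. Its means were 0.50 ± 0.43 in DMBA-treated tumours (1.42-fold, limma adjusted p = 0.0405) and 0.46 ± 0.48 in untreated tumours (1.37-fold, limma adjusted p = 0.0376). That call was lost when single tumours were left out or joined: the limma adjusted p was 0.116, 0.116 and 0.119 without DMBA-treated tumour 2, 3 or 4, 0.112 with DMBA-treated tumours 3 and 4 averaged, and 0.0662, 0.0805, 0.0743 and 0.0906 without untreated tumour 1, 3, 4 or 5, with a mean of 0.29 without untreated tumour 4.

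Nlrc5, the class I transactivator, was measured by 1 feature and in the DMBA-treated tumours alone. Its values were 0.40, 1.5, 0.48, 0.09 and 0.25 in DMBA-treated tumours 1 to 5. All lay above 0, with tumour 2 far above the rest, and the mean of 0.54 ± 0.56 (SD, n = 5, limma adjusted p = 0.0621) did not pass the test. Without tumour 2 the mean was 0.30, with a limma adjusted p of 0.0731.

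**Figure D1:**
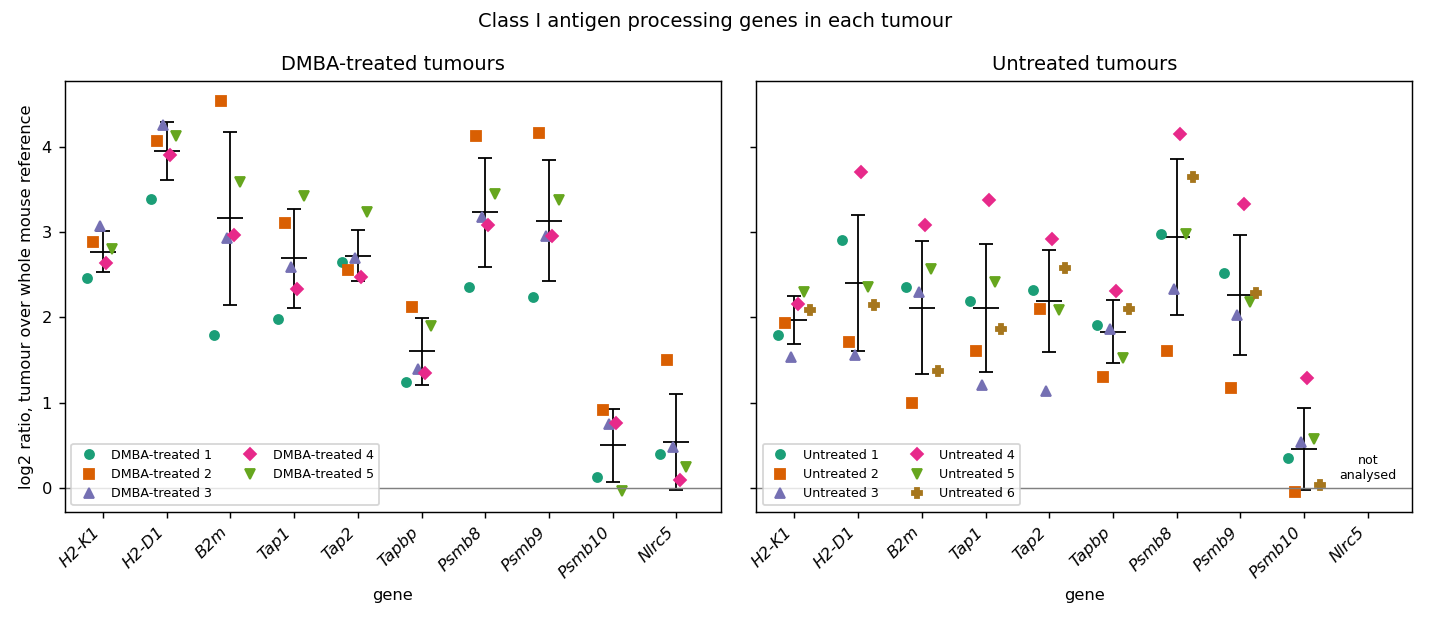
Log2 ratio of tumour over whole mouse reference for each gene, with 1 point per tumour, DMBA-treated (n = 5) and untreated (n = 6) tumours side by side and a bar at each mean. H2-K1 is the gene whose groups do not overlap (1 of 9, against 18.2% of all genes). Psmb10 and Nlrc5 have the means nearest to 0, with single tumours as high as 1.29 and 1.5.

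In all, 9 of 10 genes were higher than the reference in DMBA-treated tumours and none was lower, where 26.1% of all genes were called higher, 31.7% lower and 57.8% in either direction (limma, adjusted p under 0.05). The untreated tumours had 9 of 9 genes higher, where 28.8% of all genes were called higher, 32.1% lower and 60.9% in either direction. The same 8 genes, all but Psmb10 and Nlrc5, were also at least 2-fold higher in each group, against 8.28% of all genes in DMBA-treated tumours and 6.8% in untreated tumours. The median log2 ratio of the genes was 2.75 in DMBA-treated tumours (all genes -0.02) and 2.11 in untreated tumours. In order of their means the genes ran in DMBA-treated tumours from H2-D1 through Psmb8, B2m, Psmb9, H2-K1, Tap2, Tap1 and Tapbp to Nlrc5 and Psmb10, and the ranges of all neighbours in that order overlapped. For untreated tumours the order was Psmb8, H2-D1, Psmb9, Tap2, B2m and Tap1, H2-K1, Tapbp and Psmb10, and only Tapbp and Psmb10 had ranges that did not overlap, by a small margin. These are ratios to a common reference, so the order does not rank the genes by their level in the tumour.

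The features that measure 1 gene gave the same picture in most cases. In DMBA-treated tumours 34 of 36 features were higher than the reference, against 23% of all features, and the exceptions were the single features of Psmb10 (limma adjusted p = 0.0537) and Nlrc5. In untreated tumours 11 of 11 features were higher, against 26.8% of all features. B2m had 12 features in DMBA-treated tumours. The 11 that cite a first transcript record had means of 2.70 to 3.64, while the single feature that cites another had 1.83. All 12 were highest in DMBA-treated tumour 2, and 11 of 12 were lowest in DMBA-treated tumour 1. H2-K1 had 14 features, citing 3 transcript records, in DMBA-treated tumours. Their means were 2.63 to 2.91 for the 10 features of 1 record, 2.89 and 3.35 for another, and 2.29 and 2.94 for the last. DMBA-treated tumour 3 was highest in 12 of the 14, but in the 2 features of the last record DMBA-treated tumour 2 was highest. For Tapbp, the 2 features differed, with means of 1.91 and 1.29, while the 2 of Psmb8 had 3.21 and 3.25.

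**Figure D2:**
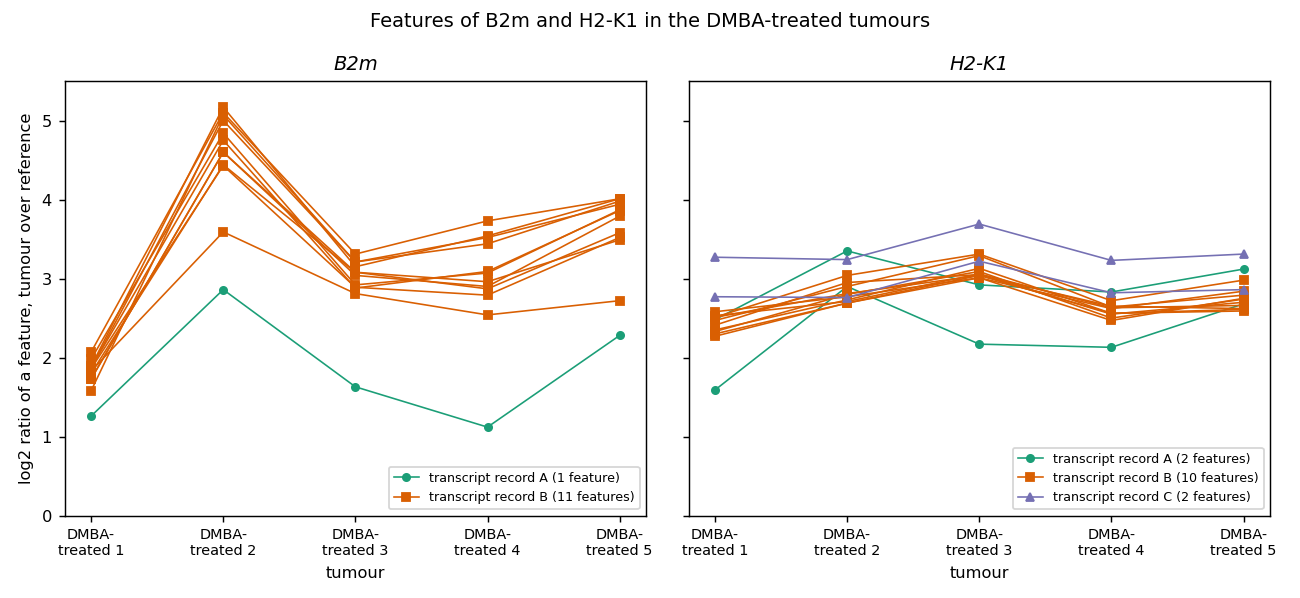
Log2 ratio of each feature of B2m (12 features) and H2-K1 (14 features) in the 5 DMBA-treated tumours, with 1 line per feature and a colour per transcript record. All B2m features peak in tumour 2, while most H2-K1 features are highest in tumour 3 and vary less.

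The inducible subunits were set against the constitutive subunits they replace within each tumour, which removes what an array shares between genes. Psmb5, Psmb6 and Psmb7, the constitutive catalytic subunits, had means of -0.04 ± 0.17, 0.09 ± 0.18 and -0.26 ± 0.29 in DMBA-treated tumours (SD, n = 5), none of which passed the test. In untreated tumours they had 0.12 ± 0.26, 0.18 ± 0.12 and -0.40 ± 0.13 (SD, n = 6). Psmb8 exceeded Psmb5 by 3.27 ± 0.64 in DMBA-treated tumours (2.41 to 4.10) and by 2.82 ± 0.90 in untreated tumours (1.4 to 4.10). Psmb9 exceeded Psmb6 by 3.05 ± 0.69 in DMBA-treated tumours (2.04 to 3.85) and by 2.08 ± 0.72 in untreated tumours (1.06 to 3.21). The third pair differed far less: Psmb10 exceeded Psmb7 by 0.77 ± 0.43 in DMBA-treated tumours (0.06 to 1.15) and by 0.85 ± 0.51 in untreated tumours (0.22 to 1.57). Every difference was above 0 in 5 of 5 DMBA-treated and in 6 of 6 untreated tumours. The two-sided exact sign-flip permutation p was 0.0625 in DMBA-treated and 0.03125 in untreated tumours for each pair, the smallest that 5 and 6 tumours allow, and 0.0625 for all 6 comparisons after Benjamini-Hochberg adjustment. None passed the threshold of 0.05 after adjustment, and none of the 6 could have passed it. At the smallest p-values that 5 and 6 tumours allow, the adjusted values cannot fall below 0.0625. These tests therefore cannot decide the question in either group. The values are differences between ratios to the reference and do not say which subunit was the more abundant.

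**Figure D3:**
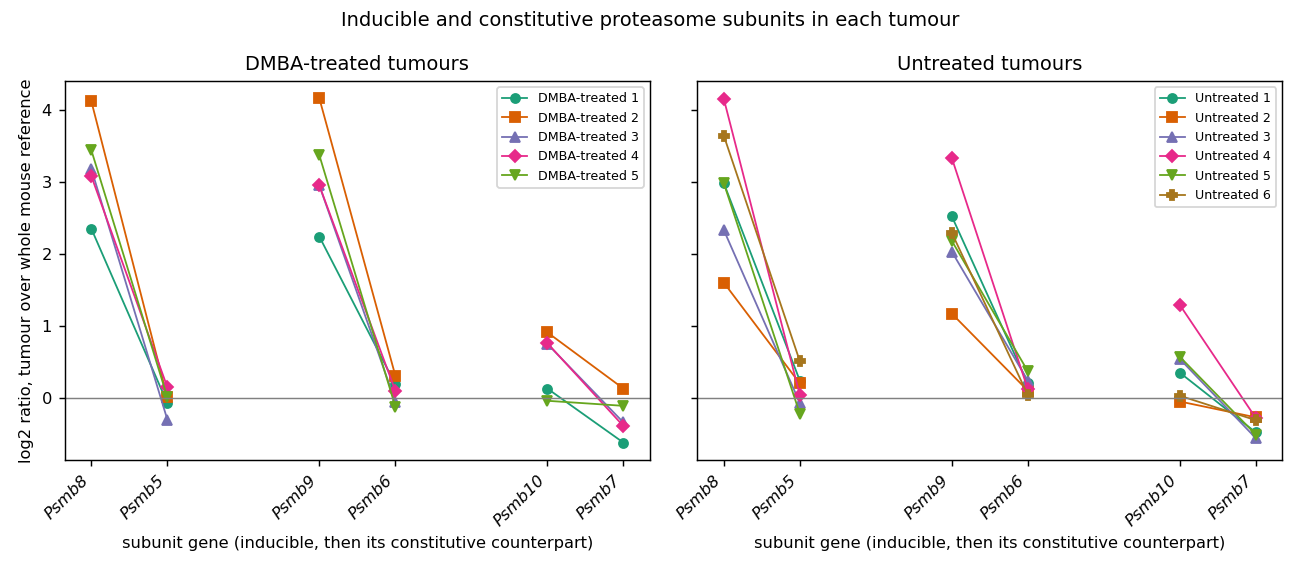
Log2 ratios of the inducible and the constitutive subunit of each proteasome pair, with a line joining the values of 1 tumour, for DMBA-treated (n = 5) and untreated (n = 6) tumours. The lines of Psmb8 with Psmb5 and of Psmb9 with Psmb6 span 1.06 to 4.10, and those of Psmb10 with Psmb7 span 0.06 to 1.57.

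Within a group, several of the genes had their highest or lowest value in the same tumour, though not all of them did. DMBA-treated tumour 2 had the highest value for 6 of 10 genes (B2m, Tapbp, Psmb8, Psmb9, Psmb10 and Nlrc5) and was above the group mean for 9 of 10, all but Tap2. DMBA-treated tumour 1 had the lowest value for 7 of 10 and was above the mean for 0 of 10. DMBA-treated tumour 5 was highest for Tap1 and Tap2 but lowest for Psmb10, and DMBA-treated tumour 3 was highest for H2-K1 and H2-D1. Among untreated tumours, tumour 4 was highest for 8 of 9 genes, with H2-K1 highest in tumour 5. Untreated tumour 2 was lowest for 5 genes (B2m, Tapbp, Psmb8, Psmb9 and Psmb10), and untreated tumour 3 was lowest for the other 4. The median distance of the genes from their group mean was -0.46, 0.47, -0.06, -0.19 and 0.22 in DMBA-treated tumours 1 to 5. It was 0.08, -0.53, -0.44, 0.97, 0.03 and 0.04 in untreated tumours 1 to 6. The genes also varied more than the median gene: their median SD was 0.49 in DMBA-treated tumours, where the median gene had 0.32, and 0.70 in untreated tumours, where the median gene had 0.28. B2m lay at percentile 95.3 of the SDs of all genes in DMBA-treated tumours, and Psmb8, H2-D1, B2m, Tap1 and Psmb9 lay at percentiles 95.2 to 97.6 in untreated tumours. H2-K1 varied little by comparison, at percentile 30.9 in DMBA-treated tumours and 51.0 in untreated tumours.

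Leukocytes carry much class I RNA, and their markers were measured beside these differences. The pan-leukocyte genes Ptprc, Coro1a, Laptm5 and Cd53 were higher than the reference for 0 of 4 and lower for 3 of 4 in DMBA-treated tumours, and higher for 1 and lower for 2 in untreated tumours. The median of these 4 genes ranged over tumours from -1.33 to -0.40 in DMBA-treated tumours and from -0.46 to -0.19 in untreated tumours. It was highest, at -0.40, in DMBA-treated tumour 2, where Ptprc (CD45) stood at -0.62 against a group mean of -1.31 ± 0.44. Coro1a (-0.18) and Laptm5 (0.38) were also highest in DMBA-treated tumour 2, and Cd53 (-0.82) was not. In untreated tumour 4 the median, -0.19, was the same as in tumours 5 and 6. There Ptprc was the highest of its group, at 0.17 against a group mean of -0.40 ± 0.38, while Laptm5 was the lowest of its group, at -0.55 against a mean of -0.02 ± 0.51. Coro1a was also highest in untreated tumour 4, at -0.83, and Cd53, at 0.27, was not. Ptprc (-0.89) and Coro1a (-1.52) were lowest in untreated tumour 2, and Laptm5 (0.29) and Cd53 (0.39) were not. Of the T and NK cell list 1 of 7 genes was higher (Gzmb, granzyme B, 1.83 ± 0.51) and 3 were lower in DMBA-treated tumours, and 2 were higher and 2 lower in untreated tumours. Beside these marker lists, 26.1% of all genes were higher and 31.7% lower in DMBA-treated tumours, and 28.8% and 32.1% in untreated tumours. The T and NK counts and the count of higher pan-leukocyte genes in untreated tumours were near that background. DMBA-treated tumour 2 was highest for Cd3d (-1.59), Cd3e (0.59), Cd8a (-0.87) and Gzmb (2.71), but not for Cd3g (-0.73), Cd4 (0.11) or Ncr1 (0.93). Untreated tumour 4 was highest for Cd3d (-0.60), Cd3g (0.94), Cd8a (0.17), Ncr1 (1.38) and Gzmb (1.89), but not for Cd3e (0.21) or Cd4 (0.07). Untreated tumour 2 was lowest for Cd3g (-0.65), Cd8a (-1.34), Ncr1 (0.34) and Gzmb (0.51), but not for Cd3d (-1.39), Cd3e (0.13) or Cd4 (-0.08). For the macrophage and dendritic cell list 2 of 5 measured genes were higher and none lower in DMBA-treated tumours, while 3 of 6 were higher and 1 lower in untreated tumours. In this list untreated tumour 4 was highest for Adgre1 (-0.04), Itgax (2.27), Flt3 (0.61) and Xcr1 (0.54), but not for Cd68 (0.22) or Cd14 (2.29). DMBA-treated tumour 2 was highest for Itgax (1.81), but not for Adgre1 (-0.80), Cd14 (2.43), Flt3 (0.21) or Xcr1 (0.45). The part of these cells in the differences between tumours was not tested, and in bulk RNA fewer cells of a type and less RNA per cell cannot be told apart.

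**Figure D4:**
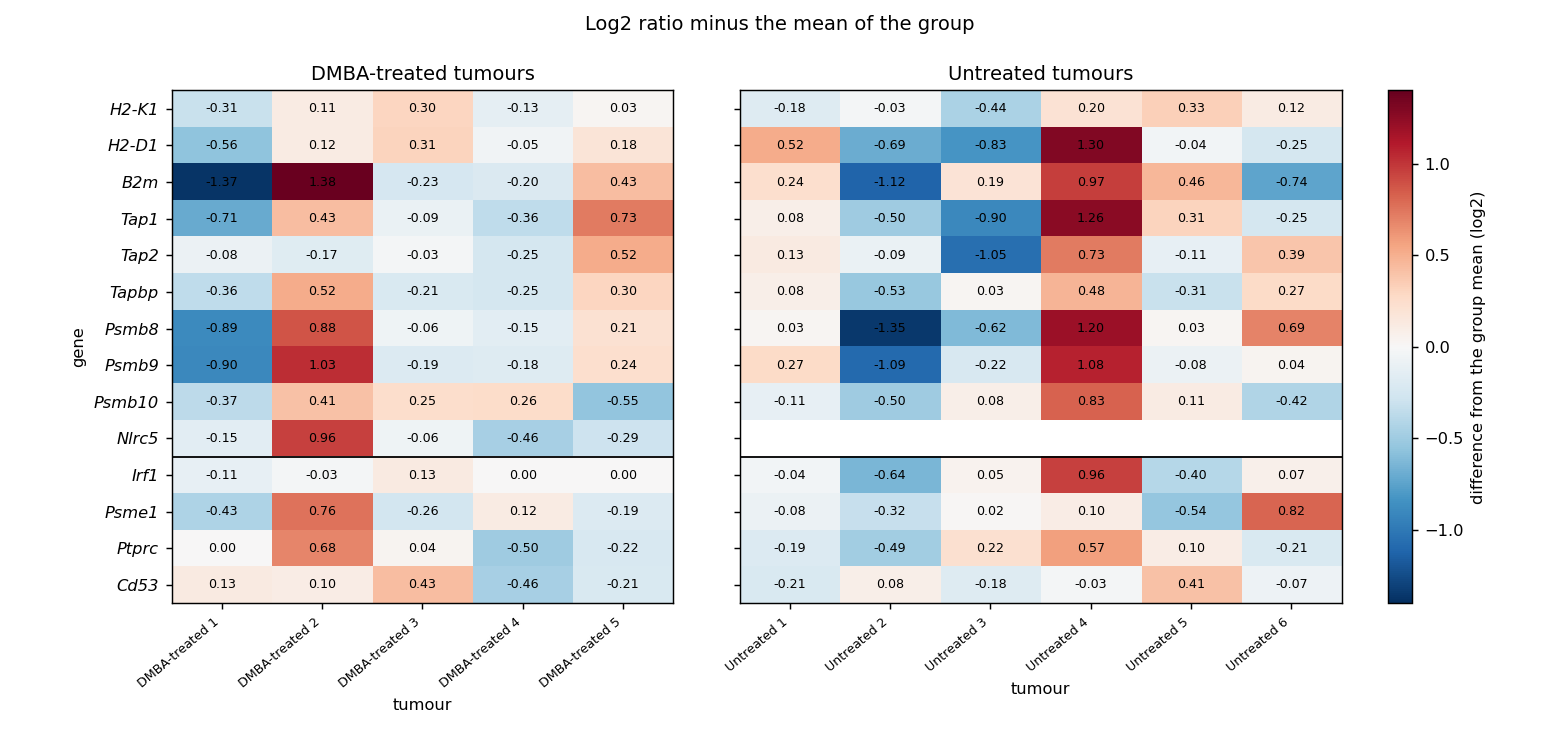
Log2 ratio minus the mean of its group for the 10 genes and, below the line, for Irf1, Psme1, Ptprc and Cd53 in each DMBA-treated (left) and untreated (right) tumour. DMBA-treated tumour 2 and untreated tumour 4 are above the mean for 9 of 10 and 9 of 9 genes, and Nlrc5 is blank for untreated tumours.

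Set side by side, 8 of 9 genes had the higher mean in DMBA-treated tumours, where 48.9% of all 16351 genes in both tables did. The difference, DMBA-treated minus untreated, was 1.55 for H2-D1, 1.05 for B2m, 0.88 for Psmb9, 0.80 for H2-K1, 0.58 for Tap1, 0.53 for Tap2, 0.29 for Psmb8, 0.05 for Psmb10 and -0.23 for Tapbp. The sign for Psmb10 turned round when DMBA-treated tumours 3 and 4 were averaged and when DMBA-treated tumour 2, 3 or 4 or untreated tumour 2 or 6 was left out. Their median was 0.58, against -0.01 for all genes. Only H2-K1, 1 of 9, had groups that did not overlap, against 18.2% of all genes in either direction (8.37% with DMBA-treated tumours higher and 9.84% with them lower), so the share of such genes was near the background. H2-D1 joined it without DMBA-treated tumour 1, without untreated tumour 4 and after quantile normalization. Restricted to features that cite a transcript record present in both tables, 8 genes could be set side by side, all 8 had the higher mean in DMBA-treated tumours, and H2-K1 alone did not overlap. H2-D1 shares no record between the tables, so its difference, the widest of the 9, is one between different probes.

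Other class I heavy chains and class I-like genes were mostly above the reference as well. In DMBA-treated tumours 14 of 21 measured genes were higher and 3 lower (median 1.77), and in untreated tumours 10 of 17 were higher and 3 lower (median 1.59). The shares over all genes were 26.1% higher and 31.7% lower in DMBA-treated tumours, and 28.8% and 32.1% in untreated tumours. H2-Q7 averaged 3.19 ± 0.20 in DMBA-treated and 2.35 ± 0.28 in untreated tumours. H2-T23, which encodes the Qa-1 ligand of NK receptors, averaged 2.80 ± 0.26 in DMBA-treated and 2.12 ± 0.65 in untreated tumours. The 3 genes below the reference were Azgp1, Fcgrt and H2-T3 in both groups. Azgp1, a secreted class I-like protein, averaged -4.27 ± 0.22 in DMBA-treated and -4.16 ± 0.24 in untreated tumours. Fcgrt, the neonatal Fc receptor, averaged -2.42 ± 0.14 in DMBA-treated and -2.62 ± 0.29 in untreated tumours, and H2-T3 averaged -1.99 ± 0.24 in DMBA-treated and -1.38 ± 0.36 in untreated tumours.

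Among genes of peptide loading and trimming, 8 of 11 were higher and 1 lower in DMBA-treated tumours (median 0.63), and 6 of 11 were higher and 2 lower in untreated tumours (median 0.52; 1 lower without untreated tumour 1, 3, 4 or 5). The shares over all genes were 26.1% higher and 31.7% lower in DMBA-treated tumours, and 28.8% and 32.1% in untreated tumours. The shifts of the loading and trimming genes were smaller than those of Tap1, Tap2 and Psmb8. Tapbpl, a tapasin-like peptide editor, averaged 1.54 ± 0.27 in DMBA-treated and 1.58 ± 0.37 in untreated tumours. Calr (calreticulin), a chaperone of the loading complex, averaged 1.6 ± 0.21 in DMBA-treated and 0.74 ± 0.32 in untreated tumours. Erap1, the aminopeptidase that trims peptides in the endoplasmic reticulum, averaged 0.54 ± 0.42 in DMBA-treated and 1.05 ± 0.19 in untreated tumours. Blmh, a cytosolic peptidase, was lower in both, at -0.79 ± 0.17 in DMBA-treated and -0.36 ± 0.16 in untreated tumours.

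The constitutive proteasome genes had means between -1.20 and 0.41 in DMBA-treated and between -0.64 and 0.57 in untreated tumours. Of 14 subunits of the constitutive 20S core, 1 was higher and 6 were lower in DMBA-treated tumours (median -0.27), and 3 were higher and 4 lower in untreated tumours (median -0.03). Among all genes, 26.1% were higher and 31.7% lower in DMBA-treated tumours. In untreated tumours the shares were 28.8% and 32.1%, so the untreated counts of the 20S core were near the background. Psma7, an outer ring subunit, was the gene above the reference in DMBA-treated tumours, at 0.41 ± 0.24, and it averaged 0.57 ± 0.20 in untreated tumours. Without DMBA-treated tumour 2, 4 or 5, the count of higher subunits there was 0, and without untreated tumour 5 the count in untreated tumours was 1. Psma6 was the lowest in DMBA-treated tumours at -1.20 ± 0.30, and had -0.35 ± 0.21 in untreated tumours. Of the proteasome activators, 2 of 3 measured genes were higher in DMBA-treated tumours and 0 of 3 in untreated tumours by limma's adjusted p. These counts stand against 26.1% and 28.8% of all genes. Psme1, a subunit of the interferon-inducible activator, averaged 0.90 ± 0.47 in DMBA-treated tumours and 0.36 ± 0.47 in untreated tumours, where its unadjusted p was 0.0514. It was highest in DMBA-treated tumour 2, at 1.66.

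In the list of class I transcription and interferon-gamma signalling, 11 of 20 measured genes were higher and 2 lower in DMBA-treated tumours (median 0.44), and 9 were higher and 6 lower in untreated tumours (median 0.21). Over all genes, 26.1% were higher and 31.7% lower in DMBA-treated tumours, and 28.8% were higher and 32.1% lower in untreated tumours, so the share of lower genes in untreated tumours was near the background. Without untreated tumour 1, 2 or 6, the count of higher genes there was 6. Irf1, an interferon-induced activator of class I genes, averaged 0.87 ± 0.09 in DMBA-treated tumours and 1.32 ± 0.55 in untreated tumours. Its values in the untreated tumours were highest in tumour 4, at 2.28, and lowest in tumour 2, at 0.69, the tumours that were highest for 8 of 9 and lowest for 5 of 9 class I genes. It was 1.37 in untreated tumour 3, above its mean, although that tumour was lowest for the other 4, and its SD in DMBA-treated tumours was small. Irf9, which joins STAT proteins in the type I interferon response, averaged 1.49 ± 0.56 in DMBA-treated and 1.61 ± 0.32 in untreated tumours. Stat2, its partner, averaged 1.70 ± 0.73 in DMBA-treated and 0.68 ± 0.80 in untreated tumours. Irf9 and Stat2 were both highest in untreated tumour 4 (1.86 and 1.96) and lowest in untreated tumour 2 (0.98 and -0.35). Among DMBA-treated tumours both were lowest in tumour 1 (0.85 and 0.67), and highest in tumour 5 (2.36 and 2.53) rather than tumour 2. A link between these orders and the class I genes was not tested. Ciita, the class II transactivator and a relative of Nlrc5, was higher than the reference in DMBA-treated tumours at 1.78 ± 0.71, and had 0.21 ± 0.37 in untreated tumours, where it did not pass. Ifngr1, a chain of the interferon-gamma receptor, was lower in both groups, at -1.4 ± 0.28 in DMBA-treated and -1.26 ± 0.13 in untreated tumours. Unlike Irf9 and Stat2, it was highest in untreated tumour 2, at -1.11. Socs1, an inhibitor of the same pathway, had -0.66 ± 0.72 in DMBA-treated tumours, where it did not pass, and was lower in untreated tumours at -1.53 ± 0.60. Ifng itself, named here after its values were seen, had -0.04 ± 0.13 in DMBA-treated and -0.04 ± 0.18 in untreated tumours.

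**Figure D5:**
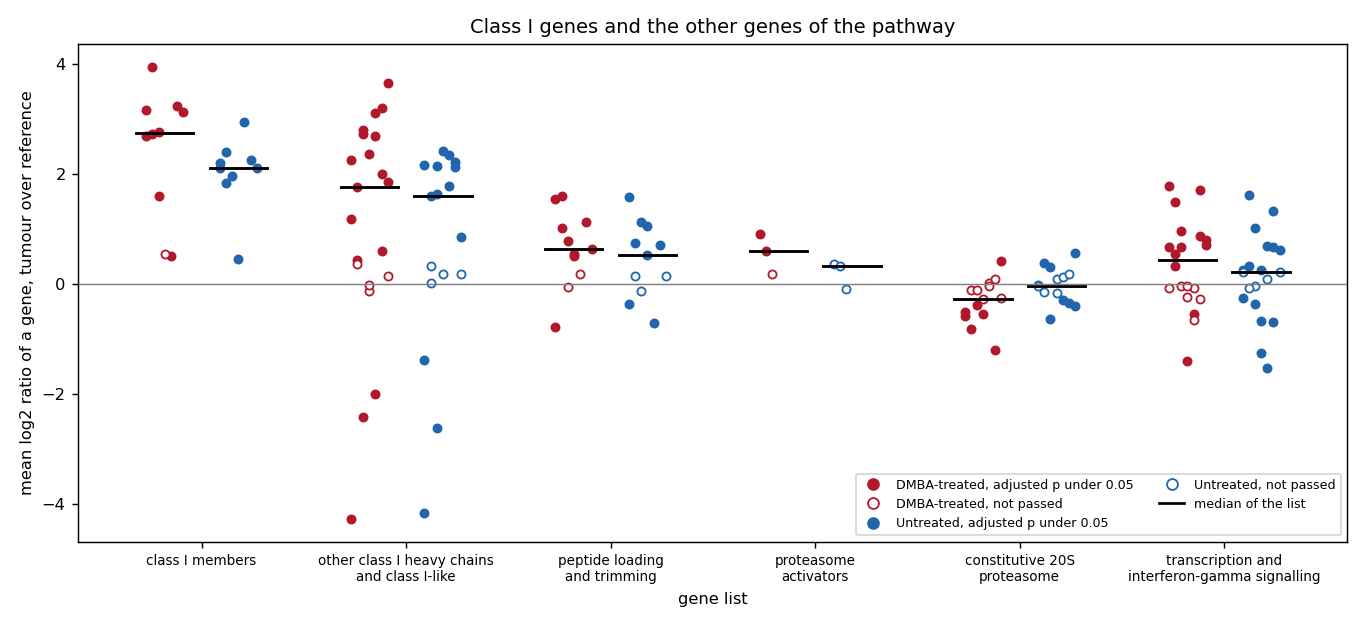
Mean log2 ratio of each gene in the class I set and in 5 lists of related genes, DMBA-treated left of untreated tumours in each list, with filled points for limma adjusted p under 0.05, open points for the rest and a bar at each median. The medians are 2.75 and 2.11 for the class I set and lie between -0.27 and 1.77 in the other lists.

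The 16342 other genes were ranked by how close their log2 ratios over all 11 tumours lay to the median of the 9 class I genes. The measure was the root mean square difference. It takes in the level over the reference as well as the order of the tumours, so a near gene need not share that order. H2-T23 was nearest at 0.24 log2 units, followed by H2-Q2 at 0.31, H2-Q5 at 0.33 and H2-M2 at 0.37, which are class I or class I-like genes. Mlkl, the executor of necroptosis, came next at 0.38. The median over all genes was 2.60. The 9 class I genes themselves lay between 0.23 (Tap1) and 2.08 (Psmb10) from their own median, with B2m at 0.60 and H2-D1 at 0.79.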

How the data were processed

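Total RNA of 5 DMBA-treated and 6 untreated mammary tumours was hybridised with whole mouse reference RNA on 2-colour oligonucleotide arrays. The values are the log2 ratios as deposited by the authors in 2 tables, of 45220 features (DMBA-treated) and 22575 features (untreated). The sources used here do not give the steps from scan to ratio, nor the log base and direction. Base 2 was taken from the range of the values (-10.7 to 8.37) and the direction from genes of other organs. Signal over background is unknown, so the precision of dim features cannot be judged, and each group has few arrays. Exact zeros were used as they are.

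Features were named from GEO's platform annotation: 33653 had 1 gene symbol, 56 several and 11511 none in the first table, against 18658, 30 and 3887 in the second. Within an array, a gene's value is the mean of its features. The mean of each group was tested against 0 with limma 3.58.1 (lmFit, eBayes; R 4.3.3) over all 19087 or 16887 genes, with Benjamini-Hochberg adjustment and a threshold of 0.05. "Higher" and "lower" refer to that test. The scripts were tested on simulated data. Tumour numbers follow accession order and carry no other meaning. DMBA-treated tumours 3 and 4 have the same number in their titles, unexplained by the labels, and were kept apart, with an alternative that averages them. No array column lacked a sample.

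The genes, the lists and the alternatives were chosen with earlier results of these data known. The text names the 10 genes, their 3 constitutive counterparts, up to 4 genes with the highest and up to 4 with the lowest mean of each list in each group, the cell type markers, and the 5 nearest genes. Alternatives were quantile normalization, limma's test against 1.5-fold, zeros as missing, other ways to join features, centring on shared genes, and leaving out each tumour. Joining features by transcript record and using shared records alone were added after seeing the data.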

Additional observations from a re-analysis of the deposited data

Results flagged for a closer look

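Dixon's criterion for 1 value far from the rest of its group was applied to 120 sets of values (the class I genes, the related genes that the naming rule selects and the proteasome pairs, in each group), of which 7 passed where chance gives about 1 in 20, or 6.0. In DMBA-treated tumours, Tap2 stood at 3.24 in tumour 5, where the others had 2.47 to 2.69, Nlrc5 stood at 1.5 in tumour 2, where the others had 0.09 to 0.48, and H2-T23 stood at 2.35 in tumour 1, where the others had 2.83 to 2.99. In untreated tumours, Blmh stood at -0.67 in tumour 3 (others -0.37 to -0.20), Psma6 at -0.75 in tumour 1 (others -0.38 to -0.17), Rfxank at -1.11 in tumour 3 (others -0.40 to -0.02) and Irf9 at 0.98 in tumour 2 (others 1.64 to 1.86).

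For 2 of 56 genes searched (3.57%), every DMBA-treated tumour lay on the other side of the reference from every untreated tumour. This was so for 1.76% of all 16351 genes in both tables. The related genes among the 56 were picked for the highest or lowest means in either group. The 2 shares therefore cannot be weighed against each other. Nfya, a subunit of the CCAAT-binding factor NF-Y, had a mean of -0.54 in DMBA-treated and 0.69 in untreated tumours, a difference of -1.24. Rfxank, a subunit of the RFX complex that binds MHC promoters, had 0.97 in DMBA-treated and -0.37 in untreated tumours, a difference of 1.34. These differences were not tested, and treatment and array design cannot be told apart.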

How the results depend on the processing

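Of 640 values recomputed under the alternatives, 598 kept their direction and their call or size, 32 counts moved by over 1.5 times, 10 values lost their call and 0 changed direction. The sign of each gene's difference between the groups is not among these values, and it turned round for Psmb10 and Tapbp under the alternatives given with their values. The 10 were all of Psmb10, 5 in each group; They came from the test against 1.5-fold in both groups, from averaging DMBA-treated tumours 3 and 4 (0.44), and from leaving out the single tumours named with its result. The other 8 class I genes that passed kept their call under each alternative run. The number of class I genes called was 8 to 9 in each group when 1 tumour was left out. Over the 5 related lists, 36 genes were higher and 12 lower in DMBA-treated tumours, against 19 and 5 in the test against 1.5-fold; in untreated tumours 28 were higher and 15 lower, against 14 and 5. That test asks for a larger change by its construction. The number of class I genes with groups that do not overlap, 1 as deposited, was 2 after quantile normalization and 1 to 2 when 1 tumour was left out, the second gene being H2-D1 (without DMBA-treated tumour 1 or untreated tumour 4); the cause was not tested. No paired analysis was possible because tumour numbers were given in accession order and pair no tumours across the groups. Signal over background was unknown, so dim features could not be set apart.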
